A study of Mus musculus with 4 samples.

Results

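Genes of DNA replication and of mitosis mark cells that are dividing. They were examined in sorted dermal papilla cells from mouse skin at postnatal day 5, from animals labelled as conditional knockouts of, or heterozygous for, the transcription factor gene Sox2. The dermal papilla is the cluster of mesenchyme enclosed by the hair bulb. Of 35 genes chosen by name, 34 had a probe set that the platform annotation assigns to that gene alone, among 19938 genes in all. Of these 34, 10 act in S phase (6 Mcm helicase subunits, Pcna, Rrm1, Rrm2 and Tyms), 20 act mainly from G2 to cytokinesis and are called mitotic here, and 4 are regulators of cell cycle entry or of the mitotic programme (Ccne1, Ccne2, E2f1 and Foxm1). Ccnb1 had no such probe set, so its expression was not analysed here. Where a gene had several probe sets, its value is their mean.

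Cells carrying a Sox2-driven GFP and integrin alpha 9 were sorted from Sox2 conditional knockout (cKO) and from Sox2 heterozygous (Het) skin, so the GFP reporter was shared by all samples. The labels name neither the Cre driver nor the alleles, and do not say whether a sample was 1 animal or a pool. Each group had 2 arrays, called biological replicates 1 and 2. Nothing says that they came from separate animals, so p-values measure only the spread between these samples, and with 4 arrays the precision is low throughout. Each value is a log2 difference from its probe set's median over all arrays, so differences between arrays can be read from them and expression levels cannot. For that reason neither the identity of the sorted cells nor whether a proliferation gene was detected could be checked, and a small range can belong to a gene that was not expressed. By construction the middle arrays of a single probe set lie at equal distances on either side of 0.

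Sox2 checked the labels: it stood at -0.87 and -0.94 in cKO replicates 1 and 2, against 0.96 and 0.87 in Het replicates 1 and 2. Its difference between the cKO arrays, replicate 2 minus replicate 1, was -0.07. Over all 28853 probe sets the SD of the centred values was 0.112 and 0.158 in cKO replicates 1 and 2, and 0.138 and 0.107 in Het replicates 1 and 2. The cKO replicate 2 array thus had the widest spread of the 4.

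Before S phase, E2F transcription factors induce genes for the replication machinery and for nucleotide supply. Later in the cycle, mitotic genes are switched on by complexes of B-Myb, MuvB and FOXM1, which act at promoter elements called cell cycle genes homology regions (CHR), often beside CCAAT boxes bound by NF-Y. In the hair follicle the epithelial matrix cells next to the papilla divide rapidly, whereas papilla cells in the growing follicle are known to divide little.

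The promoters of 5 members are shown because these genes bear the contrast described below: Cdk1 and Kif11 were the mitotic genes, and Pcna and Mcm6 the S-phase genes, that differed most between the cKO arrays among members with a single promoter in the table, and Plk1 was the mitotic gene among these that was closest to 0 there. Each runs from 250 bases before to 50 bases after the transcription start, 5′ to 3′ along the gene, from RefSeq in GRCm38.p6. Capitals mark the CHR letters TTTGAA, the CCAAT box CCAAT, and the E2F letters TTTCCCGC, TTTGGCGC, TTTGCCGC or TTTCGCGC, each searched on both strands.
Cdk1 (chr10:69352863-69353162, minus strand): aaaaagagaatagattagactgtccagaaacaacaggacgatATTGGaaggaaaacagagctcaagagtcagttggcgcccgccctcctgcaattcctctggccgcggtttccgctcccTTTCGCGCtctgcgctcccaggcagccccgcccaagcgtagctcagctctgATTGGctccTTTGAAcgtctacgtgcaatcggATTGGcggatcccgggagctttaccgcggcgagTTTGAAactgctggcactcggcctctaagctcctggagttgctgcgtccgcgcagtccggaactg
Kif11 (chr19:37376132-37376431, plus strand): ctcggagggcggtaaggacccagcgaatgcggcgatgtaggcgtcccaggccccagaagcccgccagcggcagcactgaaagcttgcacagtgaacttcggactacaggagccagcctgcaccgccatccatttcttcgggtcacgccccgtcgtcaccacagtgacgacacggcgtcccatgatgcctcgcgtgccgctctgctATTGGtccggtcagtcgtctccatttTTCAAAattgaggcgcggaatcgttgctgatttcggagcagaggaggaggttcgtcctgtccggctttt
Pcna (chr2:132253131-132253430, minus strand): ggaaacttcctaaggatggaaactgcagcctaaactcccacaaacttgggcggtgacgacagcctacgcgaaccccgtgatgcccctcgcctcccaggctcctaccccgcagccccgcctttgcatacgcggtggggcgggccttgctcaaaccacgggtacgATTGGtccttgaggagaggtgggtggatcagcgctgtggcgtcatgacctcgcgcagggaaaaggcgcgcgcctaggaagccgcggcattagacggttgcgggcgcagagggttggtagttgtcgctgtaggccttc
Mcm6 (chr1:128359656-128359955, minus strand): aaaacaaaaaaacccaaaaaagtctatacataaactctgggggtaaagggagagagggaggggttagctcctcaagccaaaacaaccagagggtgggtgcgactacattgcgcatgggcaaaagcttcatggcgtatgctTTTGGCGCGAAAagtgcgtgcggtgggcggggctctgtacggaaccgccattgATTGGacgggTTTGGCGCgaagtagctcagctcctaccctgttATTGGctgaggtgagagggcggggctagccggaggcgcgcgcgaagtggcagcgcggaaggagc
Plk1 (chr7:122159185-122159484, plus strand): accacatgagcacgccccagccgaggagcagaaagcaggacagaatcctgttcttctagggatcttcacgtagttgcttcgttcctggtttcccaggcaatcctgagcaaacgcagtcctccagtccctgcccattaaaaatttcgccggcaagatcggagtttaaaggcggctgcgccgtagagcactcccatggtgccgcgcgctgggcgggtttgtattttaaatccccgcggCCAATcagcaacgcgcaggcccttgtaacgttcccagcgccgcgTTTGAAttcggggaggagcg

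Of the 35 genes, 28 had a promoter in that table. Ccnb1, which had no expression value, is among the mitotic genes counted here. TTTGAA was found in 12 of 17 mitotic genes, 70.6%, and in 1 of 9 S-phase genes, 11.1%, against 20.2% of all 27025 genes with a promoter of this length. The E2F letters were found in 1 of 17 mitotic genes, which was Cdk1, and in 4 of 9 S-phase genes (Mcm3, Mcm5, Mcm6 and Mcm7), against 2.6% of all genes. CCAAT was in 15 of 17 mitotic and 8 of 9 S-phase genes, against 41.1% of all genes. In Cdk1 the TTTGAA letters began 71 and 15 bases before the start, in Kif11 19 bases before it on the opposite strand (counted to its first base along the gene), and in Plk1 at base 31 after it. In Mcm6 a pair of E2F matches on opposite strands overlapped. These are matches to letters and describe the sequences only.

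The comparison of cKO with Het addresses whether loss of Sox2 altered the profile of the papilla. For the proliferation genes, no member passed limma's test and no member differed by 1.5-fold. Few genes of the whole array differed that far: of 19938 genes, 110 were lower and 30 higher in cKO. Sox2 itself, at -1.81 ± 0.06 between groups, did not pass the test (limma, adjusted p = 0.345). The lack of calls therefore does not show that the members were unchanged. The test called 0 of the 34 members and 0% of all 19938 genes (limma, adjusted p of at least 0.934 for every member). At an unadjusted p under 0.05 there was 1 member, Tyms, against 5.28% of all genes. The median difference, cKO minus Het, was -0.04 over the 10 S-phase genes, -0.07 over the 20 mitotic genes and 0.03 over the 4 regulators, beside 0.0034 over all genes. By sign, 7 of 10 S-phase, 17 of 20 mitotic and 2 of 4 regulator genes were lower in cKO, against 47.7% of all genes.

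In 30 of the 34 members the cKO and Het values overlapped, all 20 mitotic genes among them. The groups were separated with cKO lower in 1 member, Tyms (15.6% of all genes), and with cKO higher in 3 members, Mcm5, Mcm7 and Ccne1 (17.8% of all genes). These shares are not above those of the array as a whole.

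For the mitotic genes the larger contrast lay inside the cKO group. Nearly all mitotic genes were lower in cKO replicate 2 than in cKO replicate 1, with the Het arrays mostly in between. The median difference, cKO replicate 2 minus cKO replicate 1, was -0.44 over the mitotic genes, -0.09 over the S-phase genes and -0.06 over the regulators, beside 0.0061 over all genes. Het replicate 2 minus Het replicate 1 gave -0.03, -0.10 and 0.04 for the same classes. The S-phase median was thus no larger in size within cKO than within Het. The sign was negative in 19 of 20 mitotic, 8 of 10 S-phase and 3 of 4 regulator genes, against 46.8% of all genes. With 1 array on each side there is no test of these differences. In bulk sorted cells, fewer dividing cells and less RNA per dividing cell cannot be told apart, and neither was tested. The parts of other cells in the sort and of the wider spread of the cKO replicate 2 array were not tested either.

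**Figure D1:**
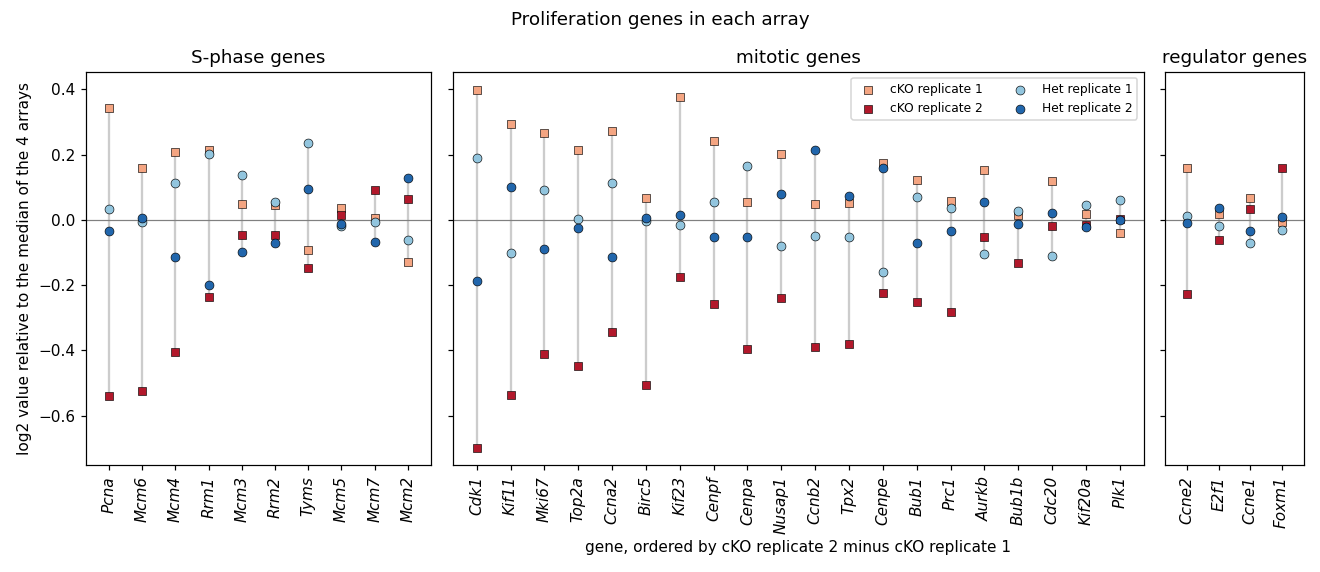
The vertical axis gives the log2 value of each of the 34 genes relative to the median of the 4 arrays, with a point for each cKO array (squares) and each Het array (circles); genes are ordered by cKO replicate 2 minus cKO replicate 1 within each class. In 16 of 20 mitotic genes the cKO replicate 2 point is the lowest of the 4, and in 14 the cKO replicate 1 point is the highest.

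Past 1.5-fold, 5 mitotic and 3 S-phase genes were lower in cKO replicate 2 than in cKO replicate 1 and 0 members were higher, against 1.63% of all genes lower and 0.547% higher. The 8 genes were Cdk1, Pcna, Kif11, Mcm6, Mki67, Top2a, Ccna2 and Mcm4. At a limit of 1.2-fold 20 members were lower and 0 higher (9.09% and 4.08% of all genes), and at 2-fold Cdk1 alone was lower and 0 members higher (0.251% and 0.0752% of all genes). Just inside the 1.5-fold limit lay Mcm4 at 1.53-fold, and just outside it Birc5 at 1.49-fold and Kif23 at 1.47-fold. Of the 325 genes on the array past this limit, the 8 members made up 2.46%, and they made up 23.5% of the 34 members.

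Cdk1, the kinase that drives entry into mitosis, had the widest contrast of the 34 members within cKO. It stood at -0.70 in cKO replicate 2 and 0.40 in cKO replicate 1, against 0.19 and -0.19 in Het replicates 1 and 2. Cdk1 was 2.14-fold lower in cKO replicate 2 than in cKO replicate 1, rank 29 from the lowest among 19938 genes, while its difference between groups was -0.15 ± 0.44 (SE, n = 2 arrays per group). The cKO arrays were thus the extremes and both Het arrays lay between them. Ccna2, the cyclin A gene of S phase and G2, stood at -0.34 and 0.27 in cKO replicates 2 and 1, against 0.11 and -0.11 in Het replicates 1 and 2. Ccnb2, a B-type cyclin gene that partners Cdk1, stood at -0.39 and 0.05 in cKO replicates 2 and 1, against -0.05 and 0.21 in the Het arrays. Its difference between groups, -0.25 ± 0.20, was the most negative of the mitotic genes, and cKO replicate 1 lay between the Het arrays.

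Mki67, whose product coats mitotic chromosomes and serves as a marker of dividing cells, stood at -0.41 and 0.26 in cKO replicates 2 and 1, against 0.09 and -0.09 in Het replicates 1 and 2. Its difference between groups was -0.07 ± 0.27. The cKO arrays again bracketed the Het arrays. Top2a, the topoisomerase that untangles sister chromatids, had 2 probe sets that disagreed. The first gave -0.94 and 0.42 in cKO replicates 2 and 1, against 0.04 and -0.04 in Het replicates 1 and 2, and the second gave 0.05 and 0.01 in cKO, against -0.03 and -0.01 in Het. The mean used here, -0.66 for cKO replicate 2 minus cKO replicate 1, therefore lies between -1.36 and 0.04.

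The spindle motors and spindle assembly genes mostly followed the same order. Kif11, the kinesin that separates spindle poles, stood at -0.54 and 0.29 in cKO replicates 2 and 1, against -0.10 and 0.10 in Het replicates 1 and 2. Its difference within cKO was -0.83 and its difference between groups -0.12 ± 0.32. Kif23, a kinesin of the central spindle in cytokinesis, differed by -0.55 within cKO and by 0.10 ± 0.21 between groups. The spindle and midzone genes Nusap1, Tpx2 and Prc1 differed by -0.44, -0.43 and -0.34 within cKO, and by -0.02 ± 0.18, -0.17 ± 0.17 and -0.11 ± 0.14 between groups. Kif20a, another kinesin of cytokinesis, had a range of only 0.07 over the 4 arrays.

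Among centromere and checkpoint genes, the centromeric histone gene Cenpa, the kinetochore motor gene Cenpe and the kinetochore gene Cenpf differed by -0.45, -0.40 and -0.50 within cKO, and by -0.23 ± 0.19, -0.03 ± 0.19 and -0.01 ± 0.20 between groups. Birc5, which encodes survivin of the chromosomal passenger complex, stood at -0.51 and 0.07 in cKO replicates 2 and 1, against -0.0045 and 0.0045 in the Het arrays, so that its contrast came from cKO replicate 2. The checkpoint kinase gene Bub1 differed by -0.37 within cKO and by -0.06 ± 0.15 between groups. Its partner in the checkpoint, Bub1b, differed by -0.15 and -0.07 ± 0.07, Aurkb, the passenger complex kinase gene, by -0.21 and 0.07 ± 0.10, and Cdc20, an activator of the anaphase-promoting complex, by -0.14 and 0.09 ± 0.08, each within cKO first. Plk1, a kinase of mitotic entry and spindle function, was the 1 mitotic gene that was higher in cKO replicate 2, by 0.04, and had a range of 0.10 over the 4 arrays.

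The S-phase genes did not act as a block. Pcna, the sliding clamp of DNA polymerases, stood at -0.54 and 0.34 in cKO replicates 2 and 1, against 0.03 and -0.03 in Het replicates 1 and 2. Its 2 probe sets each gave -0.88 for cKO replicate 2 minus cKO replicate 1, and its difference between groups was -0.10 ± 0.34. Mcm6 stood at -0.53 and 0.16 in cKO replicates 2 and 1, against -0.01 and 0.01 in the Het arrays, and Mcm4 at -0.40 and 0.21, against 0.11 and -0.11. Rrm1, the large subunit gene of ribonucleotide reductase, stood at -0.24 and 0.22 in cKO replicates 2 and 1, against 0.20 and -0.20 in Het replicates 1 and 2, so that its spread within Het was nearly as wide as within cKO. The other helicase subunit genes differed within cKO by 0.19 (Mcm2), -0.10 (Mcm3), -0.02 (Mcm5) and 0.08 (Mcm7), and the 6 subunits form 1 complex. Rrm2, the small reductase subunit gene, differed by -0.09 within cKO and by 0.0074 ± 0.0682 between groups.

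Tyms, which encodes the enzyme that makes thymidylate, differed more between groups than within cKO. It stood at -0.09 and -0.15 in cKO replicates 1 and 2, against 0.24 and 0.09 in Het replicates 1 and 2, and its groups did not overlap. Its difference of -0.29 ± 0.07 was the most negative of the 34 members between groups and did not pass the test over all genes. Its limma p was 0.0171 unadjusted and 0.934 adjusted. Within cKO it differed by only -0.06. Mcm5 and Mcm7 were separated in the opposite direction, at 0.04 ± 0.04 and 0.08 ± 0.05.

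Among the regulators, Ccne2, a cyclin E gene of the G1 to S transition, stood at -0.23 and 0.16 in cKO replicates 2 and 1, against 0.01 and -0.01 in the Het arrays. Ccne1, the other cyclin E gene, stood at 0.03 and 0.07 in cKO replicates 2 and 1, against -0.07 and -0.03 in Het replicates 1 and 2, and was separated with a difference of 0.10 ± 0.04. E2f1, an activator of S-phase genes, had a range of 0.10 over the 4 arrays. Foxm1, an activator of mitotic genes, was at 0.16 in cKO replicate 2 and -0.01 in cKO replicate 1, against -0.03 and 0.01 in the Het arrays, and cKO replicate 2 was its highest array.

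The contrast within cKO was set against that between groups gene by gene. The size of cKO replicate 2 minus cKO replicate 1 exceeded that of cKO minus Het in 19 of 20 mitotic, 7 of 10 S-phase and 3 of 4 regulator genes, against 62.3% of all genes. That background is above an even share because a difference between 2 arrays varies more than a difference between means of 2. The median size within cKO was 0.44 for the mitotic genes, against 0.08 between groups, a ratio of 5.23. The same ratio was 1.91 for the S-phase genes and 2.01 for the regulators. For all genes the median size was 0.07 within cKO, against 0.05 between groups. The difference within cKO was also larger than that within Het in 18 of 20 mitotic, 6 of 10 S-phase and 3 of 4 regulator genes, against 54.3% of all genes.

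**Figure D2:**
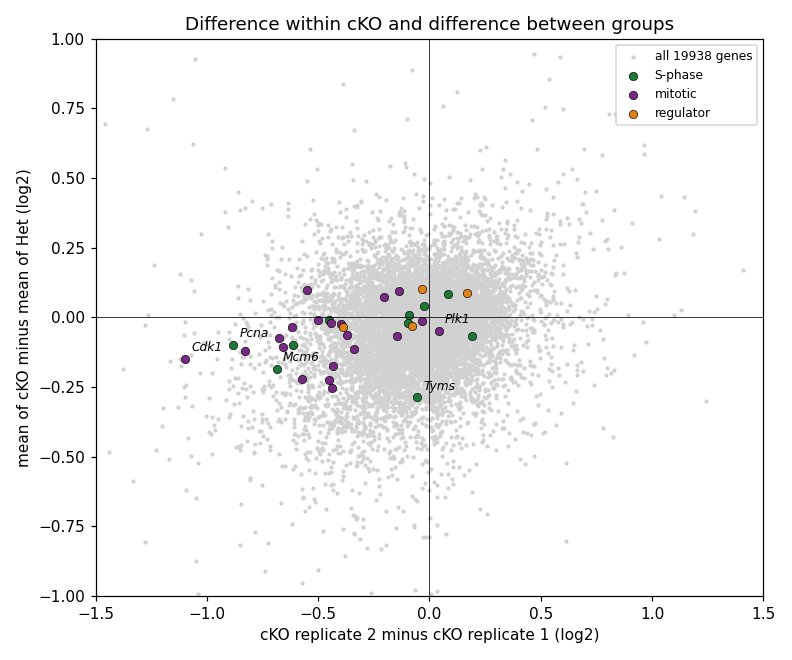
Each point is a gene, with cKO replicate 2 minus cKO replicate 1 on the horizontal axis and the mean of cKO minus the mean of Het on the vertical axis, both on the log2 scale; grey points are all 19938 genes, of which 35 lie outside the axes. The mitotic genes spread along the horizontal axis from -1.10 to 0.04 and stay between -0.25 and 0.10 on the vertical axis.

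Both cKO arrays contributed. Relative to the mean of Het, the mitotic genes had a median of 0.17 in cKO replicate 1, with 17 of 20 higher, and of -0.27 in cKO replicate 2, with 19 of 20 lower. Of all 19938 genes, 9588 were higher than that mean in cKO replicate 1 and 9442 lower in cKO replicate 2. The S-phase genes had medians of 0.05 and -0.15 in the same arrays. In 12 mitotic, 4 S-phase and 1 regulator gene, cKO replicate 1 lay above both Het arrays and cKO replicate 2 below both, an order that 7.85% of all genes had. The cKO replicate 2 array was below both Het arrays in 23 of 34 members (32.5% of all genes) and the lowest of the 4 in the same 23 (25.6% of all genes), and cKO replicate 1 was the highest in 21 (22.2% of all genes). The opposite order was found in 0 members and in 10.3% of all genes. The median for cKO minus Het of the mitotic genes was therefore the balance of 2 opposite deviations. With a cKO array left out, the other stands alone against the mean of Het. The mitotic and S-phase medians for these cases therefore repeat those above and are no separate test. Without cKO replicate 2 the mitotic median was 0.17, with 3 of 20 mitotic genes lower in cKO. Without cKO replicate 1 the mitotic median was -0.27, with 19 of 20 lower. The S-phase median likewise turned to 0.05 without cKO replicate 2, with 2 of 10 genes lower, and to 0.03 without Het replicate 1, with 4 of 10 lower. It was -0.15 without cKO replicate 1 and -0.13 without Het replicate 2, with 7 of 10 lower in each case. The mitotic median was -0.03 without Het replicate 1 and -0.10 without Het replicate 2. Among the regulators, leaving out cKO replicate 2 put 0 of 4 lower with a median of 0.06, and the median was 0.0076 without cKO replicate 1, 0.02 without Het replicate 1 and 0.05 without Het replicate 2.

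Over the other pairs of arrays, the mitotic median was -0.03 for Het replicate 2 minus Het replicate 1. It was 0.17 and 0.10 for cKO replicate 1 minus Het replicates 1 and 2, and -0.32 and -0.28 for cKO replicate 2 minus Het replicates 1 and 2. The S-phase medians for the same pairs were -0.10, then 0.01 and 0.13, then -0.28 and -0.05. The Het arrays gave 0 members past 1.5-fold in either direction, against 1.22% of all genes lower and 0.241% higher in Het replicate 2. Between cKO replicate 1 and Het replicate 2, Cdk1 alone was past 1.5-fold, higher by 0.59 on the log2 scale (0.722% of all genes higher, 0.532% lower). Cdk1 was also 1.85-fold lower in cKO replicate 2 than in Het replicate 1 (3.45% of all genes lower, 0.527% higher). Kif11 and Ccnb2 were 1.56-fold and 1.52-fold lower in cKO replicate 2 than in Het replicate 2 (1.27% of all genes lower, 0.527% higher), and no member reached this limit between cKO replicate 1 and Het replicate 1 (1.07% lower, 0.346% higher).

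**Figure D3:**
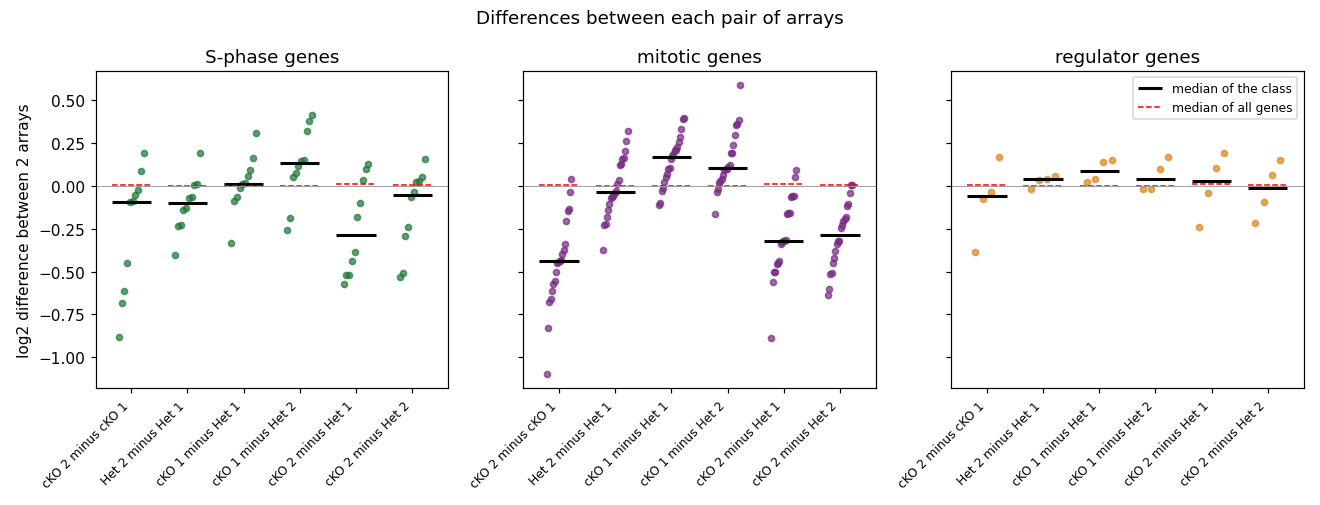
For each class the points give the log2 difference of every gene between 2 arrays, with the class median as a black line and the median of all genes as a red dashed line; numbers on the horizontal axis are replicate numbers. The mitotic median is lowest, at -0.44, between the cKO arrays, and near 0, at -0.03, between the Het arrays.

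Further genes of replication and mitosis, listed by function and not members, showed the same direction within cKO. Of 65 other mitosis genes 63 were lower in cKO replicate 2 than in cKO replicate 1, with a median of -0.23, and of 47 other replication genes 38 were lower, with a median of -0.16, beside 46.8% of all genes lower. Past 1.5-fold, 12 and 3 of them were lower and 0 higher, beside 1.63% of all genes lower and 0.547% higher. Together with the members, these lists held 146 genes, of which 23 were past this limit, 15.8% of the lists and 7.08% of the 325 genes. Between groups no gene of either list passed limma's test (adjusted p of at least 0.897), and the medians were -0.02 and -0.02 (42 of 65 and 29 of 47 lower).

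The genes named from these lists were the 3 with the largest sizes in each contrast. Among mitosis genes, Cenph, a kinetochore gene, stood at -0.40 and 0.67 in cKO replicates 2 and 1, against 0.01 and -0.01 in the Het arrays. Sgo2a, which protects centromeric cohesion, and Anln, an actin-binding gene of cytokinesis, differed by -0.84 and -0.83 within cKO. Between groups the largest were Cenpw, a centromere gene, at -0.53 ± 0.23, Cks2, a Cdk-binding subunit gene, at -0.39 ± 0.17, and Lmnb1, the gene of lamin B1, at -0.32 ± 0.14. Among replication genes, the fork protection gene Tipin, the primase gene Prim1 and the chromatin remodeller gene Hells differed by -0.82, -0.66 and -0.62 within cKO. The largest between groups were the maintenance DNA methyltransferase gene Dnmt1, at -0.41 ± 0.20, its cofactor gene Uhrf1, at -0.36 ± 0.11, and Tipin, at -0.28 ± 0.31.

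Histones supply newly made DNA in S phase, and many of their genes are near-identical copies, so the probe sets may share signal. Of 34 listed, 21 were measured, 13 of them lower in cKO replicate 2 than in cKO replicate 1, with a median of -0.08. Between the Het arrays, 16 of 21 were lower in replicate 2 than in replicate 1, with a median of -0.17. The shift in the median was thus not particular to the cKO arrays. The median size of the difference was 0.29 within cKO and 0.18 within Het. By sign, 46.8% of all genes were lower. Past 1.5-fold, 7 histone genes were lower and 0 higher, beside 1.63% and 0.547% of all genes. H4c6, H4c4 and H2bc14 differed by -1.17, -1.05 and -1.05 within cKO. H2bc14 stood at -1.12 and -0.08 in cKO replicates 2 and 1, against 0.47 and 0.08 in Het replicates 1 and 2, a difference between groups of -0.87 ± 0.42. H4c4 and the linker histone gene H1f5 differed by -0.65 ± 0.41 and -0.60 ± 0.33. None passed limma's test (adjusted p of at least 0.961).

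Other regulators of the cycle, 19 measured, had a median of -0.04 within cKO, with 14 lower, beside 46.8% of all genes. Cdk4, the G1 kinase gene, Skp2, which encodes a ubiquitin ligase subunit that targets p27, and Mybl2, the gene of B-Myb, differed by -0.62, -0.41 and -0.26 there. The largest difference between groups was that of the D-type cyclin gene Ccnd2, at -0.83 ± 0.09, which stood at -0.35 and -0.57 in cKO replicates 1 and 2, against 0.35 and 0.38 in Het replicates 1 and 2. Its groups did not overlap and it did not pass (limma, adjusted p = 0.897). Tfdp2, an E2F partner gene, and Cdk4 differed by -0.26 ± 0.11 and -0.27 ± 0.29 between groups.

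Genes that restrain the cycle divided. Of 18 measured, 9 were lower and 9 higher in cKO replicate 2 than in cKO replicate 1, with a median of 0.0051. That is near the share of all genes, of which 46.8% were lower. Past 1.5-fold, 1 was lower and 2 were higher, beside 1.63% and 0.547% of all genes. The antiproliferative gene Btg1 stood at 0.87 and -0.53 in cKO replicates 2 and 1, against -0.04 and 0.04 in the Het arrays, and Cdkn1b, which encodes the Cdk inhibitor p27, at 0.15 and -0.59, against -0.0017 and 0.06. Both were thus higher in the array where the mitotic genes were lower, while Ccng1, a p53 target gene, differed by -0.62 within cKO. Between groups the largest were the growth arrest gene Gadd45g at -0.57 ± 0.11, the retinoblastoma gene Rb1 at 0.48 ± 0.18 and Ccng2, a cyclin gene linked to cell cycle exit, at 0.42 ± 0.15. None passed (limma, adjusted p of at least 0.897). Cdkn1a had no probe set of its own and was not analysed here.

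**Figure D4:**
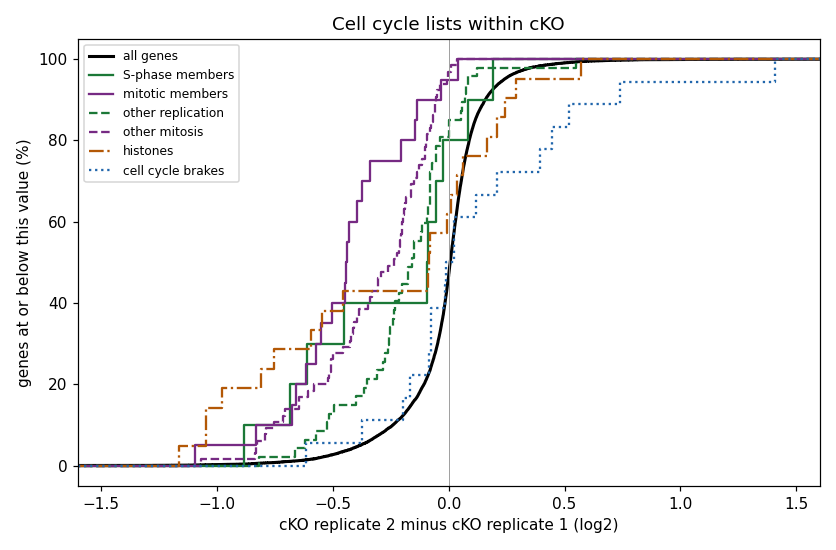
The vertical axis gives the share of genes of a list at or below the log2 difference on the horizontal axis, cKO replicate 2 minus cKO replicate 1. The curve of the mitotic genes, with a median of -0.44, lies furthest left at its midpoint, and those of the other mitosis and other replication genes have medians of -0.23 and -0.16, beside 0.0061 for all genes.

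Markers of other cell types in skin were read in the same contrast, as relative values, since no level or absence can be read from centred data. Of the keratinocyte and hair matrix markers 15 of 23 were higher in cKO replicate 2 than in cKO replicate 1, with a median of 0.05, and their array medians were 0.0081 and -0.03 in cKO replicates 2 and 1, against -0.07 and 0.18 in Het replicates 1 and 2. Melanocyte markers were higher in 10 of 12 cases (median 0.07) and those of dermal sheath and smooth muscle in 10 of 14 (0.06). Higher also were 9 of 14 endothelial (0.02), 8 of 14 fibroblast (0.01) and 3 of 3 erythroid markers (0.17). Past 1.2-fold, 3 fibroblast markers were lower and 0 higher (9.09% and 4.08% of all genes), with Mfap5 at -0.83, Col1a2 at -0.51 and Col3a1 at -0.27. Of the dermal sheath list, 1 marker was lower by that fold, Myl9 at -1.06, and 1 higher, Rgs5 at 0.51. Schwann and glial markers were lower in 8 of 11 cases (-0.12), hair shaft and inner root sheath markers in 13 of 18 (-0.07) and immune markers in 9 of 16 (-0.01). Some single genes of these lists differed far more than the medians. In the shaft and inner sheath list 5 were lower past 1.2-fold and 0 higher, with Tchh at -0.85, Krt33a at -0.75 and Krt27 at -0.57. In the Schwann and glial list 3 were lower by that fold and 0 higher: Pmp22 at -0.86, S100b at -0.74 and Egr2 at -0.57. The keratinocyte and hair matrix list had 0 lower and 3 higher, and the melanocyte list 0 lower and 2 higher. By sign, 46.8% of all genes were lower in cKO replicate 2. Between the Het arrays, replicate 2 minus replicate 1, several list medians were larger in size than within cKO. These included 0.28 for keratinocyte and hair matrix, 0.24 for melanocyte and 0.17 for hair shaft and inner root sheath markers. Those of dermal sheath and smooth muscle (0.03), Schwann and glial (0.05) and erythroid markers (0.03) were smaller. For single genes the same difference was 0.98 for Tchh, 0.17 for Krt33a and 0.81 for Krt27. It was -0.77 for Pmp22, -0.96 for S100b and 0.21 for Egr2. The part of these markers in the contrast within cKO was not tested.

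Dermal papilla markers divided evenly, 11 of 22 being higher in cKO replicate 2, with a median of 0.04 and a median size of 0.30. Those higher past 1.5-fold were Lepr at 1.59, Ndnf at 0.95, Corin at 0.83 and Lef1 at 0.60, while Cntn1, Crabp1 and Vcan were at -0.55, -0.53 and -0.48. Itga9, which encodes the integrin the cells were sorted on, was higher by 0.28. The Het arrays also differed in the papilla markers, with a median size of 0.22. Het replicate 2 minus Het replicate 1 was 0.91 for Ndnf, -0.51 for Crabp1, -0.47 for Vcan and -0.25 for Itga9. It was -0.29 for Cntn1, 0.13 for Lepr, 0.09 for Corin and -0.02 for Lef1. The cKO arrays thus differed in several papilla genes as well as in the mitotic genes. For some of these papilla genes the Het arrays differed about as much. The part of the sort in these differences was not tested.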

How the data were processed

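RNA was amplified, labelled with biotin and hybridised to arrays, per the labels' protocols. Per the submitters' processing notes the authors used RMA, and the deposited values were read here as log2 because that is the scale RMA gives. The sources used here give no log base, software version, genome build or centring step. Each of 28853 probe sets had a median over its 4 values of 0 within 1e-06. No filter on low values was possible, so none was applied and all 34 measured members stayed in the fit.

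Gene names came from GEO's platform annotation: 21789 probe sets named 1 gene, 1621 several and 5443 had none listed. Older list symbols were matched through RefSeq synonyms of GRCm38.p6. The test of cKO against Het used limma 3.58.1 under R 4.3.3 (lmFit, eBayes, two-sided), Benjamini-Hochberg adjusted over 19938 genes at 0.05, with 2 residual and 1.52 prior degrees of freedom; standard errors are from this fit. The code was tested on simulated data. Figures used matplotlib 3.10.9.

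Alternatives were arrays centred on their medians, other summaries of probe sets, each array left out, a replicate block, a robust prior, an unmoderated statistic, an SD filter, probe sets in place of genes, and other folds. Members, lists and tests were chosen with earlier results of these data known. Named genes were every member, and in each pathway list the 3 largest differences in each contrast. Those named among the markers of papilla and of other cell types, the genes just outside the 1.5-fold limit and Cdkn1a were chosen after their values or absence were seen.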

Additional observations from a re-analysis of the deposited data

How the results depend on the processing

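No proliferation gene was called under any alternative. Over all genes limma called 0 under each alternative but the filter on the SD over the 4 arrays, which called 116 genes, none of them among the 29 members it kept (777 genes had an unadjusted p under 0.05). With 1 array left out the call stayed at 0, with 769 to 1647 genes at an unadjusted p under 0.05 against 1053 with all arrays; the lone array of a group was assumed to vary like the others. The class medians for cKO minus Het ranged from -0.152 to 0.0534 (S-phase), from -0.271 to 0.168 (mitotic) and from 0.0076 to 0.0643 (regulators) over the left-out arrays. They kept their sign and moved by less than the spread between arrays of a group under centring and both other summaries of probe sets. Without cKO replicate 2 the sign turned in 14 of 20 mitotic and 5 of 10 S-phase genes, and without Het replicate 1 in 7 and 3. Within cKO, a limit of 1.2-fold in place of 1.5-fold counted 15 mitotic genes and 1 regulator lower, and a limit of 2-fold counted 1 mitotic and 0 S-phase genes, against 5 mitotic, 3 S-phase and 0 regulator genes.

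The replicate numbers do not pair samples by any label. Deviations of same-numbered arrays from their group means correlated at 0.304 over genes, and with the replicate number as a block 0 genes were called, with 1625 at an unadjusted p under 0.05.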
